A study of Mus musculus with 33 samples.

Results

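Wt1, Osr1, Osr2 and Tcf21 are transcription factor genes of connective tissue and of the mesoderm that gives rise to it, and their levels were followed here while mouse embryonic stem cells (mESCs) were driven towards tendon or fibrocartilage cells. They were chosen by gene symbol. Of the 4 genes, 3 had a row in the count table of 17120 genes, namely Wt1, Osr1 and Osr2. Tcf21 had none, by symbol or by gene identifier, and was not analysed here.

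Wt1 encodes a zinc finger protein of the urogenital ridge, the mesothelium and epicardium, the developing gonad and the podocytes of the kidney, and it is used to mark fibroblast precursors of the body wall and diaphragm. Osr1 and Osr2 encode the mammalian odd-skipped related zinc finger proteins. Osr1 acts early in intermediate and lateral plate mesoderm and marks fibro-adipogenic progenitors of limb muscle connective tissue, and both odd-skipped genes are known for roles in synovial joint formation, with Osr2 also known for palate and tooth development. Tcf21, a bHLH factor of epicardial and visceral fibroblasts, completes the group of regulators usually named beside them.

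The libraries were made from mESCs derived from blastocysts of a mouse carrying the ScxGFP reporter, in which Scx regulatory sequence drives GFP in tendon progenitors. All cultures were first grown as embryoid bodies with the BMP inhibitor LDN-193189 and then patterned towards paraxial mesoderm (PM) with the Wnt agonist CHIR and LDN-193189 until D6, and the PM group was collected there. The other 10 groups were monolayers kept from D6 in TGFβ1, the hedgehog agonist SAG and FGF2, with either CD1530, an agonist of retinoic acid receptor γ used for the tendon arm, or AGN 193109 (AGN), which holds retinoic acid receptors in their repressing state and was used for the fibrocartilage arm. Each arm was sampled at 5 times between D6.25 and D10 (the others being D6.75, D7.5 and D8.5), with 3 libraries in each of the 11 groups and 33 in all. The study's scheme for this protocol also places AGN 193109 in the medium before D6 for both arms, and the labels do not say whether the PM cultures of these libraries had it. The labels count days from the start of induction, which is D6 here. Every monolayer group carried TGFβ1, SAG and FGF2, and no arm without a retinoid receptor ligand was analysed here. A comparison with PM contains the change from embryoid body to monolayer, the added factors and time together. The study worked with several ScxGFP mESC lines, and the labels do not say which line gave which library, so p-values measure the spread between these libraries.

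Replicate 1 of CD1530 at D6.75 stood apart from its group, with a mean chi-square per gene of 20.6 and 21.9 against the other replicates (r = 0.9927 in both), where every other pair within a group gave 1.59 to 4.87. Test results of Wt1, Osr1 and Osr2 that rest on it are given with and without it. Other values that rest on it, such as levels, values of other genes and shares of all genes, include it unless stated. Library totals ranged from 17116084 to 38120841 counts, and the deepest library was replicate 1 of AGN at D8.5, the next holding 22775275. Among 7 listed paraxial mesoderm genes, Tbx6, which defines presomitic mesoderm, had a PM mean of 9.56 CPM (counts per 1000000 counts of a library). Its D10 means were 0.285 CPM with CD1530 and 0.36 CPM with AGN. T, Msgn1, Dll1 and Cdx2 also had higher means in PM than in either D10 group. Rspo3 went the other way, from 5.91 CPM in PM to D10 means of 29.8 CPM with CD1530 and 40.0 CPM with AGN. Hes7 changed little (0.573, 0.684 and 0.709 CPM in the same order). The PM label was thus met by part of this list. Scx, the tendon reporter gene, had a mean of 6.41 CPM in PM and of 858 and 1220 CPM at D10 in CD1530 and AGN. Levels below are CPM scaled by edgeR's TMM factors, given as mean ± SD of 3 libraries unless stated. Log2 fold changes carry a standard error, and adjusted p-values come from edgeR's quasi-likelihood test with Benjamini-Hochberg adjustment over all 17120 genes of a comparison. A gene was called when its adjusted p was under 0.05.

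In the GRCm38 annotation used here (GENCODE M21), Wt1 (ENSMUSG00000016458) lies on the plus strand of chromosome 2 at 105126529 to 105173616, with 6195 bases of exon. Osr1 (ENSMUSG00000048387) lies on the plus strand of chromosome 12 at 9570116 to 9581500, with 2066 bases of exon. Osr2 (ENSMUSG00000022330) lies on the plus strand of chromosome 15 at 35296098 to 35303305, with 3623 bases of exon. The counts are sums over all exons of a gene, so isoforms of Wt1, of which the annotation holds 9 transcripts, were not separated. The antisense gene Wt1os, on the minus strand, lies 19 bases from Wt1, and 1700022H16Rik overlaps the Osr1 gene body on the opposite strand. Neither shares an exon base with its neighbour, and neither has a row in the table. The library kit does not mark strand.

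The 3 genes followed different courses, and each ended higher with CD1530 than with AGN. Wt1 peaked at D8.5 with CD1530 and then fell in both arms. Osr1 was already raised at D6.25 in both arms, dropped, and climbed again to its highest level at D10. Osr2 stayed near the limit of counting until D7.5 rose with CD1530, and was called higher than PM in no AGN group by edgeR or DESeq2.

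**Figure D1:**
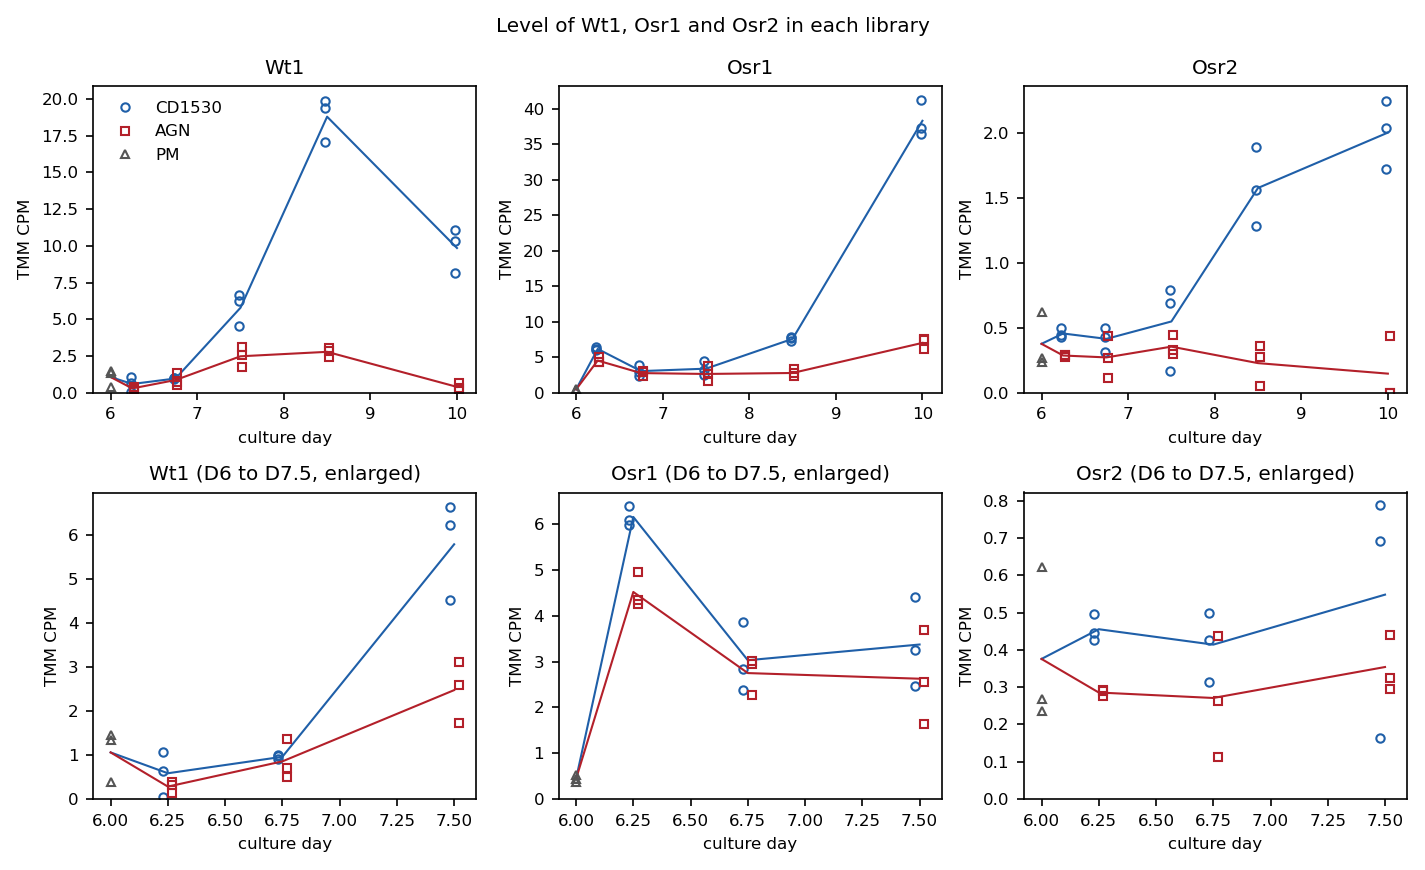
Level of Wt1, Osr1 and Osr2 in TMM CPM (linear vertical axes starting at 0) against culture day, with the upper panels covering D6 to D10 and the lower panels enlarging D6 to D7.5. Each open symbol is 1 library, lines join group means, and the PM libraries at D6 belong to both lines. Wt1 reached 17.1 to 19.9 CPM at D8.5 with CD1530, Osr1 36.5 to 41.2 CPM at D10 with CD1530, and Osr2 no more than 2.25 CPM in any library.

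Wt1 was low and variable at the start. In the PM libraries it measured 1.34, 1.46 and 0.377 CPM, from 28, 31 and 7 counts. At D6.25 the CD1530 libraries held 0.0495, 1.07 and 0.639 CPM, from 1, 24 and 15 counts. The AGN libraries of that time held 0.32, 0.146 and 0.385 CPM. The arms overlapped at D6.25, where the CD1530 libraries alone spanned from 1 to 24 counts, and they overlapped again at D6.75. At that point CD1530 gave 0.96 ± 0.0446 CPM and AGN 0.856 ± 0.448 CPM.

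The arms separated for Wt1 at D7.5. The CD1530 libraries measured 6.21, 6.63 and 4.51 CPM. Those of AGN measured 2.59, 1.72 and 3.11 CPM. Every CD1530 library was above every AGN library, and Wt1 had risen since D6.75 in both, by a log2 fold change of 2.57 ± 0.32 with CD1530 (edgeR adjusted p = 3.1e-07, and 2.60 without CD1530 replicate 1 of D6.75, adjusted p = 1.13e-05) and of 1.50 ± 0.40 with AGN (edgeR adjusted p = 0.00426). These steps called 18.7% of all genes higher with CD1530 and 14.2% with AGN.

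Wt1 was highest of all groups at D8.5 with CD1530. The CD1530 libraries measured 19.9, 17.1 and 19.4 CPM, from 357, 321 and 329 counts. The AGN libraries stayed at 2.41, 3.06 and 2.86 CPM. Between D7.5 and D8.5 Wt1 thus rose with CD1530, by 1.71 ± 0.22 on the log2 scale (edgeR adjusted p = 2.43e-07), while the step with AGN was 0.15 ± 0.31 (edgeR adjusted p = 0.745). The difference between these steps was itself called, at 1.56 ± 0.38 on the log2 scale (edgeR adjusted p = 0.00545).

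By D10 Wt1 was lower again in both arms. The CD1530 libraries measured 10.3, 11.1 and 8.15 CPM, from 204, 201 and 145 counts. With AGN the libraries measured 0.625, 0.301 and 0.238 CPM, from 10, 5 and 4 counts. No D10 library reached a D8.5 library of its own arm. The libraries of these groups did not overlap, in either direction, for 65.3% of all genes with CD1530 and 64.4% with AGN. With CD1530 Wt1 fell by 0.93 ± 0.20 on the log2 scale (edgeR adjusted p = 0.000309), and with AGN it fell by 2.80 ± 0.48 (edgeR adjusted p = 1.25e-05). The fall was steeper with AGN by 1.87 ± 0.56 on the log2 scale (edgeR adjusted p = 0.0129), a call that was lost without AGN replicate 2 of D10 (1.72, edgeR adjusted p = 0.053) or replicate 3 (1.62, edgeR adjusted p = 0.0622).

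Set against PM, Wt1 was higher at D7.5, D8.5 and D10 with CD1530, by 2.40 ± 0.32, 4.11 ± 0.28 and 3.18 ± 0.30 on the log2 scale, where 39.8%, 41.2% and 43.3% of all genes were called higher. With AGN it was higher at D7.5 and D8.5, by 1.18 ± 0.38 and 1.32 ± 0.36, where 37.3% and 38.3% were. At D6.25 with AGN it was called lower than PM, at -1.91 ± 0.59 (edgeR adjusted p = 0.00602), and at D10 with AGN it was called lower again, at -1.48 ± 0.59 (edgeR adjusted p = 0.0241), where 33.1% and 40.4% of all genes were called lower. In both of these comparisons PM replicate 3, with 7 counts, fell among the AGN libraries. The D10 call was lost without PM replicate 1 (-1.29, edgeR adjusted p = 0.0808), PM replicate 2 (-1.21, edgeR adjusted p = 0.103), AGN replicate 2 (-1.33, edgeR adjusted p = 0.0745) or AGN replicate 3 (-1.23, edgeR adjusted p = 0.091). The order of the 11 group means for Wt1 ran from CD1530 at D8.5 through CD1530 at D10 and D7.5, none of which overlapped its next lower neighbour, to AGN at D8.5 and D7.5, which overlapped each other. Below these, PM and the groups at D6.25, D6.75 and AGN D10 overlapped from each to the next.

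Osr1 behaved differently at the start. The PM libraries held 0.431, 0.52 and 0.377 CPM, from 9, 11 and 7 counts. At D6.25 the CD1530 libraries measured 5.99, 6.09 and 6.39 CPM. With AGN they measured 4.35, 4.25 and 4.96 CPM. All 6 monolayer libraries were above every PM library, as held for 36.2% of all genes with CD1530 and 37.0% with AGN. The log2 fold change against PM was 3.77 ± 0.26 with CD1530 (edgeR adjusted p = 5.6e-16) and 3.32 ± 0.28 with AGN (edgeR adjusted p = 1.7e-13). Osr1 was the 1 gene of the 3 called higher than PM at D6.25, in a comparison that called 34.5% of all genes higher with CD1530 and 35.0% with AGN.

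This early level was not held. At D6.75 the CD1530 libraries measured 2.84, 3.86 and 2.39 CPM. Those with AGN measured 2.95, 2.28 and 3.02 CPM. From D6.25 to D6.75 Osr1 fell by 1.03 ± 0.17 on the log2 scale with CD1530 (edgeR adjusted p = 4.11e-06, and by 0.99 without CD1530 replicate 1 of D6.75, adjusted p = 1.07e-05) and fell by 0.72 ± 0.19 with AGN (edgeR adjusted p = 0.00198). Osr1 alone of the 3 genes was called lower in this step, which called 20.1% of all genes lower with CD1530 and 18.8% with AGN. At D7.5 the level was 3.37 ± 0.982 CPM with CD1530 and 2.63 ± 1.03 CPM with AGN, and the arms overlapped.

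From D7.5 onwards Osr1 rose earlier with CD1530. At D8.5 the CD1530 libraries measured 7.82, 7.66 and 7.25 CPM. The AGN libraries measured 2.33, 3.26 and 2.7 CPM. The step from D7.5 was 1.19 ± 0.17 on the log2 scale with CD1530 (edgeR adjusted p = 3.39e-07) and 0.05 ± 0.21 with AGN (edgeR adjusted p = 0.871), and the difference between these steps was called at 1.13 ± 0.27 (edgeR adjusted p = 0.00302). All 3 genes were called higher at D8.5 than at D7.5 with CD1530, where 18.8% of all genes were, and none of the 3 with AGN, where 21.4% were. In the AGN step the unadjusted p of each of the 3 was also above 0.05 and DESeq2 called none of them.

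At D10 Osr1 had its highest level in both arms. The CD1530 libraries measured 37.3, 36.5 and 41.2 CPM, from 739, 663 and 733 counts. The AGN libraries measured 6.13, 7.41 and 7.49 CPM, from 98, 123 and 126 counts. Every D10 library exceeded every D8.5 library of its arm, as held for 31.2% of all genes with CD1530 and 32.3% with AGN. The log2 fold change was 2.34 ± 0.13 with CD1530 (edgeR adjusted p = 8.77e-19) and 1.38 ± 0.18 with AGN (edgeR adjusted p = 1.12e-08). The rise was larger with CD1530 by 0.96 ± 0.22 on the log2 scale (edgeR adjusted p = 0.00115). Over this last step Wt1 and Osr1 moved in opposite directions in both arms, Wt1 being called lower and Osr1 higher. That step called 29.9% of all genes lower and 27.4% higher with CD1530, and 29.5% lower and 29.9% higher with AGN.

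Against PM, Osr1 was called higher in all 10 monolayer groups, from 2.53 ± 0.32 on the log2 scale in AGN at D7.5 to 6.41 ± 0.20 in CD1530 at D10. Between 34.5% and 43.3% of all genes were called higher in these comparisons, with 38.3% at D6.75 with CD1530 and 39.0% with AGN. At D6.75 with CD1530 it was 2.79 higher without replicate 1 (edgeR adjusted p = 2.54e-11). Every monolayer library was above every PM library for Osr1, as held for 36.2% to 43.9% of all genes in these comparisons. In the order of its group means CD1530 at D10 stood apart, and CD1530 at D8.5 (7.58 ± 0.293 CPM), AGN at D10 (7.01 ± 0.763 CPM) and CD1530 at D6.25 (6.16 ± 0.21 CPM) overlapped from each to the next. The AGN level at D10 was therefore not set apart from the level that CD1530 cultures had at D8.5.

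Osr2 was the lowest of the 3. The PM libraries held 0.622, 0.236 and 0.269 CPM, from 13, 5 and 5 counts. Between D6.25 and D7.5 no library of either arm held more than 17 counts, and the CD1530 libraries at D7.5 ranged from 3 to 17 counts. At these depths a modest difference in Osr2 was not detectable.

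At D8.5 the CD1530 libraries measured 1.56, 1.28 and 1.89 CPM for Osr2, from 28, 24 and 32 counts. The AGN libraries measured 0.271, 0.357 and 0.053 CPM, from 10, 7 and 1 counts. The step from D7.5 with CD1530 was 1.46 ± 0.39 on the log2 scale (edgeR adjusted p = 0.00269). At D10 the CD1530 libraries measured 1.72, 2.04 and 2.25 CPM, and the step from D8.5 to D10 was 0.35 ± 0.32 (edgeR adjusted p = 0.373), with overlapping libraries. In the AGN libraries of D10 Osr2 had 7, 0 and 0 counts, so its mean of 0.146 ± 0.253 CPM came from 1 library.

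Against PM, Osr2 was called higher at D8.5 and D10 with CD1530, by 2.03 ± 0.43 and 2.38 ± 0.41 on the log2 scale. At D10 with AGN it stood at -1.38 ± 0.73 against PM and was not called (edgeR adjusted p = 0.0766). Of the 3 genes, all were called higher than PM at D10 with CD1530, in a comparison that called 43.3% of all genes higher. With AGN at D10 the 1 called higher was Osr1, among 41.6% of all genes, and the 1 called lower was Wt1, among 40.4%.

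Levels of different genes were compared per kilobase of exon. At CD1530 D8.5 Osr1 had 3.67 ± 0.142 and Wt1 3.04 ± 0.245 CPM per kilobase. At D10 the order was wider, with Osr1 at 18.6 ± 1.22, Wt1 at 1.59 ± 0.244 and Osr2 at 0.552 ± 0.0738 CPM per kilobase. With AGN at D10 Osr1 had 3.39 ± 0.369 CPM per kilobase, against 0.0626 ± 0.0336 for Wt1 and 0.0403 ± 0.0697 for Osr2. Osr1 was thus the leading gene of the 3 in both arms at D10 by this measure, and Wt1 approached it at D8.5 with CD1530. The exon length is the union over all annotated transcripts, 9 for Wt1 and 2 for Osr1, and the transcripts expressed are not known. The order of Osr1 and Wt1 at D8.5 with CD1530 is therefore uncertain.

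The direct comparison of the arms asked whether activating or repressing the retinoic acid receptors changed these genes under otherwise equal media. At D6.25 and D6.75 none of the 3 genes was called, in comparisons that called 1.92% and 18.0% of all genes. DESeq2 called none of them either. The unadjusted edgeR p was 0.00851 for Osr1 at D6.25 and above 0.05 for the other 5 gene and time pairs. Osr1 was higher with CD1530 in every library at that time, by 0.45 ± 0.16 on the log2 scale (edgeR adjusted p = 0.194), with a 95% interval from 0.13 to 0.76, and 10.2% of all genes had CD1530 libraries wholly above the AGN libraries. Osr2 libraries did not overlap at D6.25 either, with 0.495, 0.445 and 0.426 CPM with CD1530, from 10 counts each, and 0.275, 0.293 and 0.289 CPM with AGN, from 6 counts each. The Osr2 difference was 0.66 ± 0.55 (edgeR adjusted p = 0.73), with a 95% interval from -0.42 to 1.74. For Osr1 a fit of the compared libraries alone gave the same 0.45 with an edgeR adjusted p of 0.0273. At D6.75 the 95% interval of the log2 difference ran from -0.26 to 0.53 for Osr1, from -0.77 to 1.07 for Wt1 and from -0.54 to 1.68 for Osr2. Without CD1530 replicate 1 the D6.75 differences were 0.18, 0.13 and 0.73 in that order, and none was called (edgeR adjusted p = 0.66, 0.919 and 0.466).

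At D7.5 Wt1 was called, 1.22 ± 0.28 on the log2 scale higher with CD1530 (edgeR adjusted p = 0.0012). It was the 1 of the 3 called higher, where 15.2% of all genes were, and its libraries did not overlap, as held for 23.1% of all genes with CD1530 above AGN. Osr1 differed by 0.36 ± 0.20 (edgeR adjusted p = 0.206) and Osr2 by 0.68 ± 0.51 (edgeR adjusted p = 0.363). The Osr1 value rested on the libraries included, since it was called without AGN replicate 1 (0.66, edgeR adjusted p = 0.024).

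At D8.5 all 3 genes were called higher with CD1530, against 20.4% of all genes. Wt1 was 2.79 ± 0.24 higher on the log2 scale (edgeR adjusted p = 1.01e-10), a fitted 6.9-fold. Osr2 was 2.69 ± 0.45 higher (edgeR adjusted p = 3.89e-06), a fitted 6.47-fold. Osr1 was 1.49 ± 0.17 higher (edgeR adjusted p = 2.47e-09), a fitted 2.81-fold. For each of the 3 genes every CD1530 library was above every AGN library, as held for 26.0% of all genes.

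At D10 all 3 were again called higher with CD1530, against 22.7% of all genes, and 12.2% of all genes were called higher at both D8.5 and D10. The CD1530 libraries were wholly above the AGN libraries for all 3, as held for 27.4% of all genes. Wt1 differed by 4.66 ± 0.39 on the log2 scale (edgeR adjusted p = 6.04e-11), Osr2 by 3.76 ± 0.53 (edgeR adjusted p = 1.1e-07) and Osr1 by 2.45 ± 0.13 (edgeR adjusted p = 4.49e-19). The median over all genes at D10 was -0.02, and the 5th to 95th percentiles were -1.02 and 1.23. The Osr2 value is the least certain in size, because without AGN replicate 1 the remaining AGN libraries held 0 counts. With 3 counts over those libraries as the floor, on the TMM CPM scale, Osr2 was then at least 22.3-fold higher with CD1530. That figure leaves out the AGN library with 7 counts (0.438 CPM), so it is not a lower bound for all libraries. The fit of all libraries gave 13.5-fold, with a 95% interval from 2.72 to 4.79 on the log2 scale. Wt1 was among the genes the study selected from these same libraries, so its difference is not independent evidence of that selection.

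**Figure D2:**
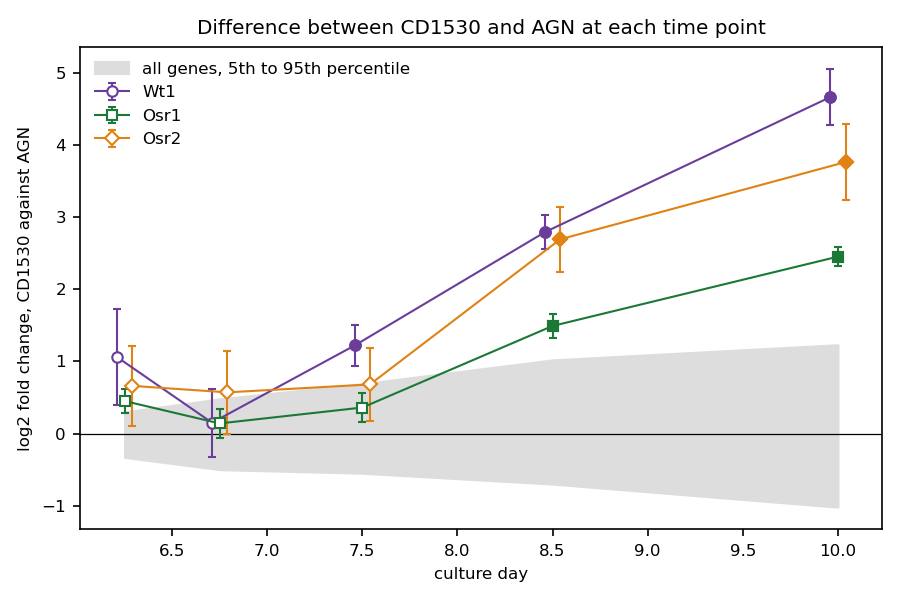
Log2 fold change of CD1530 against AGN at each culture day for Wt1, Osr1 and Osr2, with standard error bars, filled symbols where the gene was called, and a grey band from the 5th to the 95th percentile of all 17120 genes. All 3 genes lie above the band at D8.5 and D10, where Wt1 reaches 2.79 and 4.66. They also lie above it at D6.25, where none was called. Osr2 does so at D6.75, uncalled, and Wt1 at D7.5.

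For each of the 3 genes the CD1530 minus AGN difference varied over the 5 sampled days, by an edgeR quasi-likelihood test with 4 degrees of freedom (adjusted p = 5.59e-06 for Wt1, 1.45e-11 for Osr1 and 0.0013 for Osr2). This test called 48.8% of all genes. Without CD1530 replicate 1 of D6.75 its adjusted p was 2.9e-05, 3.52e-14 and 0.000405 in the same order. Step by step, the difference grew between D7.5 and D8.5 for Wt1 and Osr1, and again between D8.5 and D10 for both. A change towards higher CD1530 was called for 4.92% of all genes in the first of these steps and for 12.7% in the second. These shares hold genes of either sign of the difference before the step. For Osr2 the change from D7.5 to D8.5 was 2.01 ± 0.72 on the log2 scale and did not pass (edgeR adjusted p = 0.0641), although DESeq2 called it at 2.06 (adjusted p = 0.0285). From D8.5 to D10 it was 1.06 ± 0.83 (edgeR adjusted p = 0.384). The growth of the Wt1 difference after D8.5 came with a fall in both arms, whereas that of Osr1 came with a rise in both.

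These are bulk libraries, so a change in the number of cells that express a gene cannot be told apart from a change in the RNA of that gene per cell. The arms also differed at D10 in markers of several cell types, which are given with the gene groups below, and their part in the differences of Wt1, Osr1 and Osr2 was not tested. Each group is described by its counts of called genes and its median log2 fold change at D10, beside a median of -0.02 over all genes, of which 22.7% were called higher and 24.0% lower with CD1530 at D10. These shares are the background of every count below, and with lists this short a count near them says nothing about a list.

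Genes that retinoic acid receptors are known to regulate were higher with CD1530 throughout. Of 10 in the list, 8 were called higher at D6.25 and all 10 at each of the 4 later time points, with a median of 0.66 at D6.25, 4.47 at D8.5 and 4.42 at D10. At D10 Cyp26a1, which encodes the retinoic acid degrading enzyme, measured 169 ± 5.76 CPM with CD1530 and 2.45 ± 0.263 CPM with AGN. Rarb, the receptor gene with a classical response element, measured 56.2 ± 3.57 and 1.12 ± 0.488 CPM. Hoxb1 differed by 9.05 ± 0.31 on the log2 scale and Stra6, a retinol transporter gene, by 5.10 ± 0.08. The response of this list at D6.25 and D6.75 stood beside differences of Wt1, Osr1 and Osr2 that were not called at those times. At D6.25 these differences were 1.06 ± 0.67, 0.45 ± 0.16 and 0.66 ± 0.55 in that order, beside the list median of 0.66. With Wt1 and Osr2 at low counts, the D6.25 values do not show a later response of these genes than of the list. At D6.75 the differences were 0.15 ± 0.47, 0.14 ± 0.2 and 0.57 ± 0.57, each below the list median of 1.7.

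Other connective tissue regulators did not share a direction. Of 19 with a row, 9 were called higher and 8 lower with CD1530 at D10, with a median of 0.17. Nr2f1, an orphan nuclear receptor gene, was 2.45 ± 0.10 higher on the log2 scale, Tbx3 1.65 ± 0.08 and Ebf3 1.05 ± 0.19. Prrx1, a homeobox gene of limb and craniofacial mesenchyme, was lower, at -1.17 ± 0.06, and measured 71.5 ± 2.47 CPM with CD1530 and 161 ± 6.68 CPM with AGN.

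Of 17 products of muscle connective tissue and fibroblasts, 2 were called higher and 11 lower with CD1530 at D10, with a median of -0.55, against 22.7% and 24.0% of all genes. Both that were higher encode matrix proteins, the proteoglycan gene Dcn at 1.45 ± 0.05 and the microfibril gene Mfap5 at 2.46 ± 0.21. Ly6a, which encodes the surface antigen Sca-1 of fibro-adipogenic progenitors, was lower at -2.75 ± 0.13, and so was the dermatopontin gene Dpt at -1.46 ± 0.18. Osr1 and Ly6a, both used to mark these progenitors, thus moved in opposite directions between the arms at D10.

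Tissues in which Wt1 is known were examined next. Of 12 mesothelial and epicardial genes with a row, 6 were called higher and 3 lower with CD1530 at D10, with a median of 0.41, the share called lower being close to the 24.0% of all genes. The summed level of the list at D10 ran from 215 to 224 CPM with CD1530 and from 166 to 179 CPM with AGN. Much of it came from the keratin genes Krt8 (55.2 and 42.3 CPM) and Krt18 (85.0 and 49.4 CPM). Bnc1, a basonuclin gene of mesothelium, was higher at 1.31 ± 0.19, Gpm6a at 1.72 ± 0.44 and the keratin gene Krt19 at 0.85 ± 0.09, whereas Aldh1a2, the retinoic acid synthesis enzyme of mesothelium and epicardium, was lower at -1.17 ± 0.11. Msln, Upk1b, Muc16 and Aldh1a1 had no row, so 4 of the 16 listed genes could not be compared. At D8.5, where Wt1 was highest, 2 of the list were called higher and 4 lower, against 20.4% and 19.6% of all genes. The sums were then 167 to 175 CPM with CD1530 and 188 to 195 CPM with AGN. At D7.5 they were 389 to 400 and 610 to 641 CPM.

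Of 8 genes of the gonad and adrenal primordium with a row, 5 were called higher at D10 and none lower, against 22.7% and 24.0% of all genes, with a median of 1.17 and summed levels of 92.9 to 98.1 CPM with CD1530 and 50.4 to 54.2 CPM with AGN. Cbx2, a Polycomb gene, had the highest level of the list, at 48.3 CPM with CD1530 and 44.6 CPM with AGN, and was not called (0.11 ± 0.06 on the log2 scale, edgeR adjusted p = 0.0909). Dmrt1, a sex determination and germ cell regulator, was called higher, at 34.5 ± 3.64 and 2.83 ± 0.435 CPM. Emx2 was called higher by 2.15 ± 0.31 on the log2 scale, Foxl2 by 1.69 ± 0.39 and the steroid transport gene Star by 1.45 ± 0.19, at 2.36, 1.65 and 4.21 CPM with CD1530. Lhx9, another gene of this primordium, was at 0.355 CPM with CD1530 and 0.384 CPM with AGN and was not called, and Nr5a1 and Amh had no row.

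Of 6 podocyte genes, 2 were called higher and 3 lower at D10, with a median of 0.11. Podxl, a sialomucin gene, was lower at -1.23 ± 0.06 and the actin-associated gene Synpo at -0.87 ± 0.06, while Npnt, a basement membrane gene, was higher at 0.92 ± 0.10. Of 18 genes listed as WT1 partners or WT1-regulated genes, 7 were called higher and 4 lower, with a median of 0.14, the share called lower again being close to the 24.0% of all genes. Gas1, a hedgehog co-receptor gene, was higher at 1.26 ± 0.08. Snai1 at -1.43 ± 0.06 and Cdh1 at -1.14 ± 0.04, an epithelial-mesenchymal transition factor and the E-cadherin gene, were both lower, as was Igf2 at -1.16 ± 0.13.

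For the mesoderm in which Osr1 acts early, 5 of 12 intermediate mesoderm and nephron progenitor genes with a row were called higher and 4 lower at D10, with a median of 0.08. Pax2, a core regulator of this lineage, was higher by 3.68 ± 0.52 on the log2 scale but at a level of 1.63 CPM with CD1530 and 0.124 CPM with AGN. Lhx1 and Six2 were lower, at -1.91 ± 0.18 and -1.36 ± 0.21. Lhx1 was high in both arms at D6.25, with group means of 110 CPM with CD1530 and 134 CPM with AGN, at the time of the early Osr1 level. Pax2 and Pax8 of the same list were then at 0.0927 and 0.14 CPM with CD1530 and at 0.191 and 0.11 CPM with AGN. A link of these genes to the early Osr1 level was not tested.

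Of 12 lateral plate genes with a row, 8 were called higher and 2 lower at D10, with a median of 1.0, against 22.7% and 24.0% of all genes. Isl1, Hand1 and Hand2, regulators of heart and limb field mesoderm, were higher by 3.34 ± 0.39, 2.73 ± 0.51 and 2.60 ± 0.38, from levels of at most 2.37 CPM. Bmp4 was lower at -1.36 ± 0.05 and measured 69.7 ± 1.16 and 179 ± 4.01 CPM. The summed level of the list was therefore lower with CD1530, 284 to 288 CPM against 390 to 411 CPM with AGN. Of 5 pharyngeal mesoderm genes with a row, 4 were called higher and 1 lower, with a median of 1.4, Lhx2 standing at 2.58 ± 0.37 and Tbx1 at -1.27 ± 0.14.

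Joint and interzone genes, where both odd-skipped genes are known to act, gave 5 called higher and 4 lower of 11 at D10, with a median of 0.75. Gdf6, a growth and differentiation factor gene of joints, had 5.01 ± 0.431 CPM with CD1530 and 0.244 ± 0.127 CPM with AGN, beside 0.465 CPM in PM. The ligand genes Wnt4 (4.10 ± 0.16) and Wnt9a (2.03 ± 0.08) were higher on the log2 scale, and the BMP antagonist gene Chrdl1 was lower (-2.79 ± 0.05). Like Osr1 and Osr2, Gdf6 was not called at D6.25, D6.75 or D7.5 and was called higher at D8.5 (2.65 ± 0.47, edgeR adjusted p = 1.47e-05) and D10 (edgeR adjusted p = 1.23e-11). Barx1 of this list had the same course of calls, at 2.28 ± 0.29 on the log2 scale at D8.5 and 1.98 ± 0.29 at D10. The remaining genes of the list did not share this course, Wnt4 and Wnt9a being called higher already at D7.5. At D10 Gdf5 was not called, and Erg (-1.60 ± 0.06), Prg4 (-1.93 ± 0.15) and Enpp2 (-1.72 ± 0.07) were called lower. The summed level of the list at D10 was 571 to 581 CPM with CD1530 against 811 to 844 CPM with AGN.

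Among 11 genes tied to the odd-skipped factors in kidney, limb or palate, 2 were called higher and 5 lower at D10, with a median of -0.15. The secreted Wnt modulators moved apart, Sfrp2 at 1.89 ± 0.09 and Sfrp1 at -1.81 ± 0.06.

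**Figure D3:**
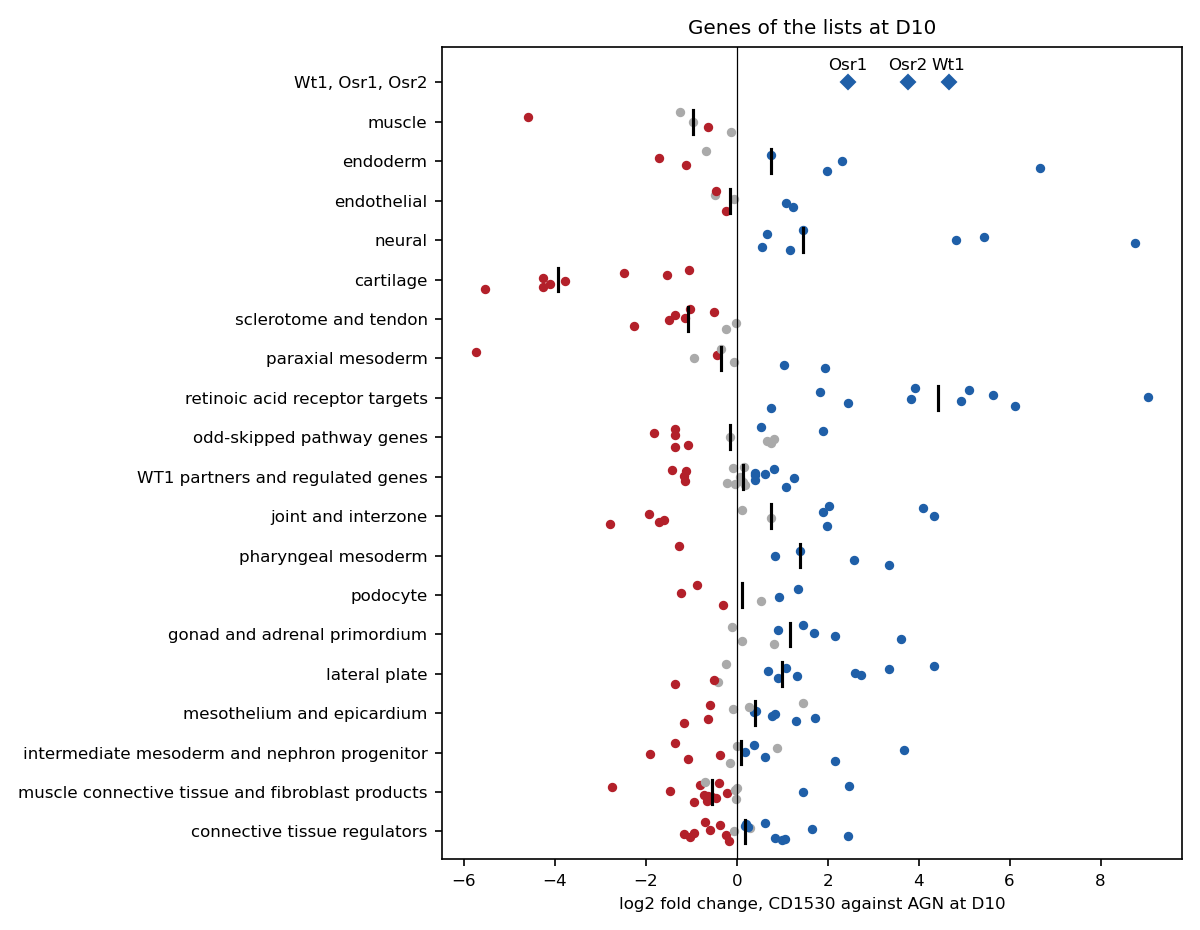
Log2 fold change of CD1530 against AGN at D10 for the genes of 19 lists and for Wt1, Osr1 and Osr2 (top row, diamonds). Blue and red dots are genes called higher and lower with CD1530, grey dots were not called, and black bars mark list medians. The retinoic acid receptor targets (median 4.42) lie to the right and the cartilage genes (median -3.94) to the left, while most other lists hold genes on both sides.

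Markers of the tissues the arms were designed for and of other cell types moved with the same comparison. All 8 cartilage genes were called lower with CD1530 at D10, with a median of -3.94 and summed levels of 251 to 256 CPM against 3200 to 3330 CPM with AGN, and of 8 sclerotome and tendon genes 6 were called lower and none higher, with a median of -1.08, where 24.0% of all genes were called lower. All 7 neural genes were called higher, with a median of 1.46 and summed levels of 778 to 789 CPM against 479 to 515 CPM. The sum was 619 to 637 CPM in PM, and at D8.5 the arms overlapped, at 770 to 817 CPM with CD1530 and 735 to 801 CPM with AGN. Sox1, Pax6 and Neurog2 gave only a small part of these sums. Sox1 measured 16.0 ± 1.82 and 0.367 ± 0.168 CPM, Pax6 10.4 ± 0.61 and 0.362 ± 0.0974 CPM, and Neurog2, a proneural gene, was at 0 in all 3 AGN libraries. Endothelial genes gave 2 called higher and 2 lower of 6 (median -0.15), endoderm genes 4 and 2 of 7 (median 0.75), and paraxial mesoderm genes 2 and 2 of 7 (median -0.34). Of 5 muscle genes with a row, 2 were called lower with CD1530 at D10, with a median of -0.96, and their summed level was at most 8.25 CPM in any D10 library.

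The genes whose course over the 11 group means was most like each member were ranked by Pearson's r of log2(TMM CPM + 1) among 13366 genes with a highest group mean of at least 5 CPM, as a description. The group means share the control groups, libraries and scaling. For Wt1 these were Mael (r = 0.974), Xlr3a (0.969), Kdm1b (0.963), the predicted gene Gm18336 (0.961) and Mov10l1 (0.955). Mael and Mov10l1 are known for transposon silencing in germ cells, Kdm1b is a histone demethylase gene, and Xlr3a belongs to a family of near-identical copies whose counts are uncertain. Mael measured 13.0 CPM at D8.5 and 7.29 CPM at D10 with CD1530, against 4.08 and 2.37 CPM with AGN.

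For Osr1 the closest were Tnfaip3 (r = 0.969), Fmnl2 (0.966), Ppp1r21 (0.96), Ubxn4 (0.956) and Panx1 (0.951). Tnfaip3 encodes the ubiquitin-editing protein A20, Fmnl2 an actin-assembling formin and Panx1 a channel protein. Their range was narrower than that of Osr1, Tnfaip3 for instance standing at 7.62 CPM in PM and 23.6 CPM in CD1530 at D10. For Osr2 they were Gkap1 (r = 0.981), Rfx4 (0.964), Chrna3 (0.958), Chit1 (0.955) and Zscan4c (0.95), the last again a member of a multicopy family. Rfx4 and Chrna3 are genes of the nervous system. Gkap1 stood at 16.5 CPM with CD1530 and 8.84 CPM with AGN at D10. Among the members themselves r was 0.843 for Wt1 and Osr2, 0.713 for Osr1 and Osr2 and 0.459 for Wt1 and Osr1, over 11 groups.

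**Figure D4:**
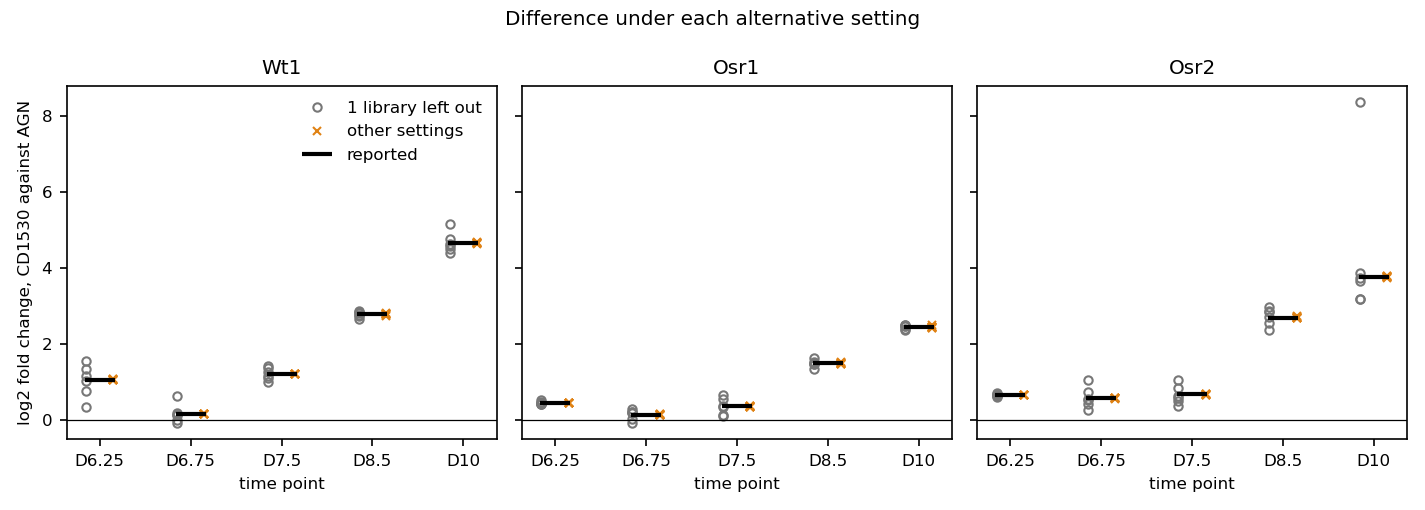
Log2 fold change of CD1530 against AGN at each time point under every setting tried, with the reported value as a black bar, fits with 1 library left out as grey circles and other scalings, filters, tools and blocks as orange crosses. At D8.5 and D10 every value lies above 0, and the 1 value far from its group is Osr2 at D10 without AGN replicate 1 (8.37).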

How the data were processed

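Bulk RNA sequencing libraries were analysed from 33 samples in 11 groups of 3. The authors aligned paired-end reads from a kit that does not mark strand to GRCm38 with STAR and counted them per gene with featureCounts, and the deposited table holds these counts, unnormalized, for 17120 genes. Which annotation release was counted, whether strand was used and how multi-mapping reads were treated are not given in the sources used here. All 17120 gene identifiers were found in GENCODE M21.

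Counts were fitted with edgeR 4.0.16 (R 4.3.3) in 1 model with a mean for each group: TMM scaling, filterByExpr (which removed no gene), robust quasi-likelihood tests and Benjamini-Hochberg adjustment within each contrast, called at an adjusted p under 0.05. Contrasts were CD1530 against AGN at 5 time points, each group against PM (10), steps between neighbouring times (8) and condition by time (5 tests). The biological coefficient of variation was 4.68%. On simulated counts for CD1530 against AGN at D10 over 17092 genes, 53 of 67 genes changed 1.5-fold, 55 of 67 changed 2-fold and 65 of 66 changed 4-fold were recovered, with 11 false calls.

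Totals ranged from 17116084 to 38120841 counts (median 19899242). No libraries were identical, and every pair within a group differed beyond sampling noise (lowest mean chi-square 1.59 per gene). Per kilobase levels used the union of exons. Reads were not deduplicated by molecular identifiers, so floors of 3 counts cover counting error only.

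The genes named were the members, the 5 most similar genes for each, up to 4 called genes with the largest change at D10 from each of 19 lists (mean of at least 10 counts), and genes needed to say that a marker is absent. Some genes this rule names are not reported here. Gene members and lists were chosen with earlier results of these data known. The list gene Tcf4 is the E protein gene, and Tcf7l2, which also goes by that name in muscle connective tissue, was not listed. Alternatives were DESeq2 size factors, library size scaling, filters, DESeq2 1.42.0 tests, fits of the compared groups alone, a replicate block and leaving out each library.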

Additional observations from a re-analysis of the deposited data

Results flagged for a closer look

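The difference between CD1530 and AGN changed over time for each of the 3 genes, and this is why they are listed here. Over the 5 time points the edgeR adjusted p was 5.59e-06 for Wt1, 1.45e-11 for Osr1 and 0.0013 for Osr2, in a test that called 48.8% of all genes. Changes towards higher CD1530 were called for 4.92% of all genes from D7.5 to D8.5 and for 12.7% from D8.5 to D10. From D7.5 to D8.5 the log2 difference grew by 1.56 for Wt1 and 1.13 for Osr1. From D8.5 to D10 it grew by a further 1.87 for Wt1, while Wt1 itself fell in both arms, and by 0.96 for Osr1, which rose in both. The Wt1 value of the last step depended on AGN libraries of D10 that held 10, 5 and 4 counts.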

How the results depend on the processing

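The calls of Wt1 at D7.5, D8.5 and D10, and of Osr1 and Osr2 at D8.5 and D10, between CD1530 and AGN held under all 13 alternatives of each. Leaving out 1 library gave 4.40 to 5.16 for Wt1, 2.36 to 2.50 for Osr1 and 3.18 to 8.37 for Osr2 at D10 (log2). At D6.75 it gave -0.08 (without AGN replicate 3) to 0.64 for Wt1 and -0.07 (without CD1530 replicate 2) to 0.29 for Osr1, uncalled throughout. At D7.5 it gave 0.11 to 0.66 for Osr1. Against PM at D10 with AGN it gave -1.99 to -1.21 for Wt1 and -5.99 to -0.80 for Osr2, where Osr2 was called without AGN replicate 1 (-5.99) or PM replicate 2 (-1.66) and with library size scaling (-1.52, edgeR adjusted p = 0.0488). Fitting the compared groups alone called Osr1 at D6.25 (0.45, edgeR adjusted p = 0.0273) and the Osr2 change from D7.5 to D8.5 (2.00), and gave no value for Osr2 in 16 contrasts and Wt1 in 2, which its filter removed. The Osr2 change from D8.5 to D10 was 5.67 without AGN D10 replicate 1. The rise of Wt1 from D6.25 to D6.75 with AGN (1.58, edgeR adjusted p = 0.0412) was lost without any of 4 libraries (1.09 to 1.85).

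Genes called between the arms numbered 329 at D6.25 and 3076 at D6.75, and 804 and 1236 with the compared groups alone; leaving out 1 of 4 libraries gave 196 to 218 at D6.25. For the CD1530 steps to D6.75 and D7.5 the numbers were 7853 and 5854, against 5185 and 2792, and for the condition by step tests 826 and 1541, against 439 and 649, with 1301 for the first without CD1530 D6.75 replicate 1. The cause was not tested. With CPM of the library total Osr1 was at 35.7 CPM at D10 with CD1530. The most similar genes depended on the measure: over 33 libraries 3 of 5 were shared for Wt1 and for Osr1, and with Spearman's rho 2, 1 and 0 of 5 for Wt1, Osr1 and Osr2.

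Same-numbered replicates did not as a rule deviate together (median r 0.000271, from -0.292 to 0.235, over 165 pairs, 6 of them over 0.1). The main fit therefore did not pair libraries by number. This check cannot show whether same-numbered libraries were grown or prepared together. A replicate block changed no call for the 3 genes, with 4.65, 2.45 and 3.76 for Wt1, Osr1 and Osr2 at D10. Depth limits Osr2 most, which had at most 40 counts in any library.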

Other observations

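Nphs1, the podocyte slit diaphragm gene that is a well-known target of WT1 in kidney, was chosen here after its values were seen. It measured 3.22 ± 0.548 CPM in PM and 10.3 ± 0.326 CPM at D6.75 with CD1530, against 1.54 ± 0.249 CPM with AGN. It reached 17.3 ± 0.523 CPM at D7.5 with CD1530 and had dropped to 8.59 ± 0.299 CPM at D8.5 and 0.965 ± 0.0847 CPM at D10. With AGN no library exceeded 2.38 CPM from D6.25 onwards. Nphs1 was higher with CD1530 by a log2 fold change of 2.72 ± 0.16 at D6.75 and 2.95 ± 0.14 a time point later. The value was 2.30 ± 0.16 at D8.5, and at D10 it was 0.53 ± 0.32 and not called (edgeR adjusted p = 0.18). Nphs1 was called at D6.75, when Wt1 was not, and its highest group mean came before that of Wt1. The Wt1 difference at D6.75 was 0.15 ± 0.47 on the log2 scale, from libraries of 9 to 28 counts. Which of these genes differed first between the arms was therefore not settled. A link between Wt1 and Nphs1 was not tested.

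Sohlh2, a germ cell bHLH gene that came close to Wt1 in course over 33 libraries (r = 0.927), measured 55.8 CPM at D8.5 and 61.4 CPM at D10 with CD1530, against 8.87 and 3.6 CPM with AGN. Unlike Wt1, its group mean was not lower at D10 than at D8.5 with CD1530.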
